A study of Mus musculus with 36 samples.

Results

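The genes described here are 38 imprinted genes of the mouse that lie outside the Snrpn region, out of 24421 genes in each count table. They were chosen by symbol from 16 loci on 10 chromosomes, with earlier results of these data known, and they are not every imprinted gene outside that region or of these loci. Igf2, which the study names among genes involved in body size, is one of those left out. By common knowledge 18 of the 38 were classed as expressed from the paternal allele and 17 from the maternal allele. For 3 (Grb10, Ddc and Gnas) the allele was classed as depending on the tissue or the isoform. These classes may not hold for every member in every tissue or isoform, and they were not measured in these brains.

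Both the cerebellum and the hippocampus were taken from each of 18 adult C57Bl/6 mice, and their RNA gave 36 poly(A) libraries. Control mice (Pogzfl/fl) carried floxed Pogz alleles and no Cre. Heterozygous cKO+/- mice (NesCre/+; Pogzfl/+) and homozygous cKO-/- mice (NesCre/+; Pogzfl/fl) carried a Cre driven by the Nestin promoter, which acts in neural progenitors and their descendants and leaves Pogz intact in cells that never expressed it. Each genotype had 6 mice, 3 of each sex. Since no control carried Cre, the presence of Cre and the loss of Pogz cannot be told apart. Pogz encodes a chromatin-associated zinc finger protein, and the study treated the number of intact Pogz alleles as a dose.

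At an imprinted gene, 1 parental copy is silenced, usually through DNA methylation laid down in the egg or the sperm, so that RNA comes mainly from the other copy. Imprinted genes sit in clusters that share a control region, and a cluster often holds a long noncoding RNA on 1 parental chromosome and protein-coding genes on the other. Many are known for growth, placenta and brain. All mice were of 1 inbred strain and the tables give 1 count per gene, so the parental origin of the RNA was not measured here. What was measured is the total level of each gene.

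Pogz RNA, the check of the labels, was lowest in cKO-/- mice in both tissues. In the cerebellum it was 89.6 to 130 CPM (counts scaled to library size) in controls and 57.0 to 74.0 CPM in cKO-/- mice, and in the hippocampus 89.0 to 92.8 CPM in controls and 58.7 to 67.7 CPM in 5 cKO-/- mice. The counts did not separate the floxed exons from the rest of the gene. Library totals were 21421850 to 32544929 counts in the cerebellum and 17609321 to 45544188 in the hippocampus. The hippocampal library of Sample_1160 (cKO-/-) stood apart, with a median correlation of 0.875 to the other hippocampal libraries, where the others had 0.976 to 0.990. The hippocampal fit therefore used 17 libraries, and each hippocampal call was also computed with all 18. Markers of the choroid plexus, the tissue in the ventricles that secretes cerebrospinal fluid, summed to over 1000 CPM in 3 cerebellar libraries (Sample_933, Sample_936 and Sample_1433) and in 4 hippocampal ones (Sample_1129, Sample_1170, Sample_1219 and Sample_1385). Cerebellar markers summed to 7622 to 9811 CPM in cerebellar and 146 to 532 CPM in hippocampal controls, and hippocampal markers to 921 to 1364 CPM in hippocampal and 219 to 265 CPM in cerebellar ones. All 6 controls fell within the run of animal numbers from Sample_1120 to Sample_1219, whereas 4 of the cKO-/- and 3 of the cKO+/- mice were numbered outside that run.

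Sequences are shown first for members called for the slope per Pogz allele lost in the cerebellar fit described further on, because their start regions differ in base composition. The call of Nnat was lost with a covariate for animal numbers, and its slope turned negative within the controls' run. The 300-base windows run from 250 bases before to 50 bases after the transcription start in RefSeq (GRCm38.p6), printed on the gene's strand. Capitals mark TGCCGC on either strand, the hexamer that the imprint-maintaining zinc finger protein ZFP57 recognises when methylated. Rasgrf1 lies at chr9:89909525-89909824 (plus strand), Airn at chr17:12741061-12741360 (plus strand) and Nnat at chr2:157559828-157560127 (plus strand).
Rasgrf1: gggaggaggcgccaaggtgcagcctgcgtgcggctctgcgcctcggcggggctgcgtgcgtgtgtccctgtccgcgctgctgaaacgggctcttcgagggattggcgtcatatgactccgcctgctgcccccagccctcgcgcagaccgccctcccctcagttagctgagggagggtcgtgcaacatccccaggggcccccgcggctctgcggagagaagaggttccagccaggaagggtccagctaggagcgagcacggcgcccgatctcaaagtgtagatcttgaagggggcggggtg
Airn: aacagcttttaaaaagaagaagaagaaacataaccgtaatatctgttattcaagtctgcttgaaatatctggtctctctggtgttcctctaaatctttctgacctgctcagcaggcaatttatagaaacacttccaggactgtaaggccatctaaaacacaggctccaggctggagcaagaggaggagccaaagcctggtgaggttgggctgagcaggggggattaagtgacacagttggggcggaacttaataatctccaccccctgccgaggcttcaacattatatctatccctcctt
Nnat: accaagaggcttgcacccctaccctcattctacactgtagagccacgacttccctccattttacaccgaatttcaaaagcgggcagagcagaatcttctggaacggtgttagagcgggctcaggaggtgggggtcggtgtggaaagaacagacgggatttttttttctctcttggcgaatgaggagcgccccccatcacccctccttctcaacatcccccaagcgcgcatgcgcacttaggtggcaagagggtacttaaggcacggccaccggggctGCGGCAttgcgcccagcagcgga
The Rasgrf1 window held 26 CpG dinucleotides with an observed-to-expected ratio of 0.748, the Nnat window 17 with a ratio of 0.690, and the Airn window 3 with a ratio of 0.192. Only the Nnat window of these held the hexamer. RefSeq gave windows for 29 of the 38 members, 42 windows in all. The hexamer was in 11 of them (26.2%), against 11.6% of all 32851 windows in the table, and a CpG ratio over 0.6 was in 23 of them (54.8%), against 35.8% of all. These are descriptions of letters, several members have more than 1 window, and no binding or methylation was measured.

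A further set of sequences belongs to Mirg, the last of 3 maternally expressed noncoding RNAs in the Dlk1-Dio3 cluster on chromosome 12. Its span (chr12:109734981-109749457, plus strand) holds 10 microRNA hairpins on its own strand in RefSeq, which give 19 mature microRNAs with 18 different seeds. The sequences are shown because Mirg fell in the cerebellum. Capitals mark the seed (bases 2 to 8), by which a microRNA pairs with its targets. The first 2 share their seed and no other mature microRNA of the table has it. The other 3 are examples from the same transcript.
mmu-miR-453: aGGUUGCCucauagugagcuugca
mmu-miR-496a-5p: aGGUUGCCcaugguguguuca
mmu-miR-377-3p: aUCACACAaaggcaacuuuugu
mmu-miR-410-3p: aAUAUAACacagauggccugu
mmu-miR-154-5p: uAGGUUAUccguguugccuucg
Poly(A) libraries of this kind count the host RNA, so the mature microRNAs themselves were not measured. The exons of Mirg overlapped the hairpins Mir369, Mir410 and Mir412 on the same strand.

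The first comparison asked at what level the members are present in the 2 tissues of control mice. Per kilobase of exon, Nap1l5, an intronless gene of the nucleosome assembly family, led in the cerebellum with 253 ± 12.8 CPM per kb (SD, n = 6), beyond the spread of the next member. Gnas, which encodes the stimulatory G protein subunit, followed with 134 ± 13.9 CPM per kb, then Meg3 (126 ± 72.3), the noncoding RNA Peg13 (101 ± 14.1) and Rian (96.2 ± 23.8), and these neighbours in the order did not differ beyond their spread. In the hippocampus Meg3 led with 249 ± 33.9 CPM per kb, followed by Nnat (217 ± 65.1), which encodes the small membrane protein neuronatin, and Gnas (162 ± 5.65), and here Meg3 and Nnat were not separated by more than their spread. At the other end, Phlda2, a placental growth regulator, had 0 counts in all 12 control libraries. With a limit of 3 counts this allows up to 0.112 CPM in the shallowest cerebellar control library and up to 0.0987 CPM in the shallowest hippocampal one, for counting error only. Calcr, Nespas, Ascl2 and Slc22a3 were also low, the highest value in any control library being 0.843 CPM (Slc22a3, hippocampus).

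Between the tissues 20 of the 30 members tested in controls differed at a false discovery rate (FDR) of 0.05 in edgeR's quasi-likelihood test, 10 higher in the hippocampus and 10 higher in the cerebellum. Of all 14224 genes tested 71.9% differed, 35.2% higher and 36.7% lower in the hippocampus (73% with the animal as a block, where 20 members were again called), so this share is not particular to the members. The widest difference was that of Airn, a paternally expressed antisense RNA known to silence neighbours on the same chromosome in some tissues. It was 10.997 to 19.9 CPM (median 11.3) in the cerebellum and 0.436 to 1.84 CPM (median 0.905) in the hippocampus, so the tissues did not overlap, and its log2 fold change was -3.62 (SE 0.23, adjusted p = 8.23e-09). Cobl, an actin nucleator of dendrites, lay at the other extreme with 2.09 to 3.75 CPM in the cerebellum and 9.05 to 27.3 CPM in the hippocampus (log2 fold change 2.80, SE 0.25, adjusted p = 2.17e-07).

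Nnat and Rasgrf1 were also higher in the hippocampus. Nnat was 53.7 to 84.3 CPM in the cerebellum and 159 to 391 CPM in the hippocampus (log2 fold change 2.20, SE 0.20). Rasgrf1, which encodes a Ras guanine nucleotide exchange factor of neurons, was 181 to 253 CPM in the cerebellum and 574 to 761 CPM in the hippocampus (log2 fold change 1.73, SE 0.10). In both cases the lowest hippocampal control lay above the highest cerebellar one. Of the 15 paternally expressed members tested, 8 were higher in the cerebellum (among them Peg10, Nap1l5, Inpp5f, Peg13 and Peg3) and 5 in the hippocampus. Of the 12 maternally expressed ones, 2 were higher in the cerebellum (H19 and Mirg) and 4 in the hippocampus (Cobl, Meg3, Ppp1r9a and Zim1).

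**Figure D1:**
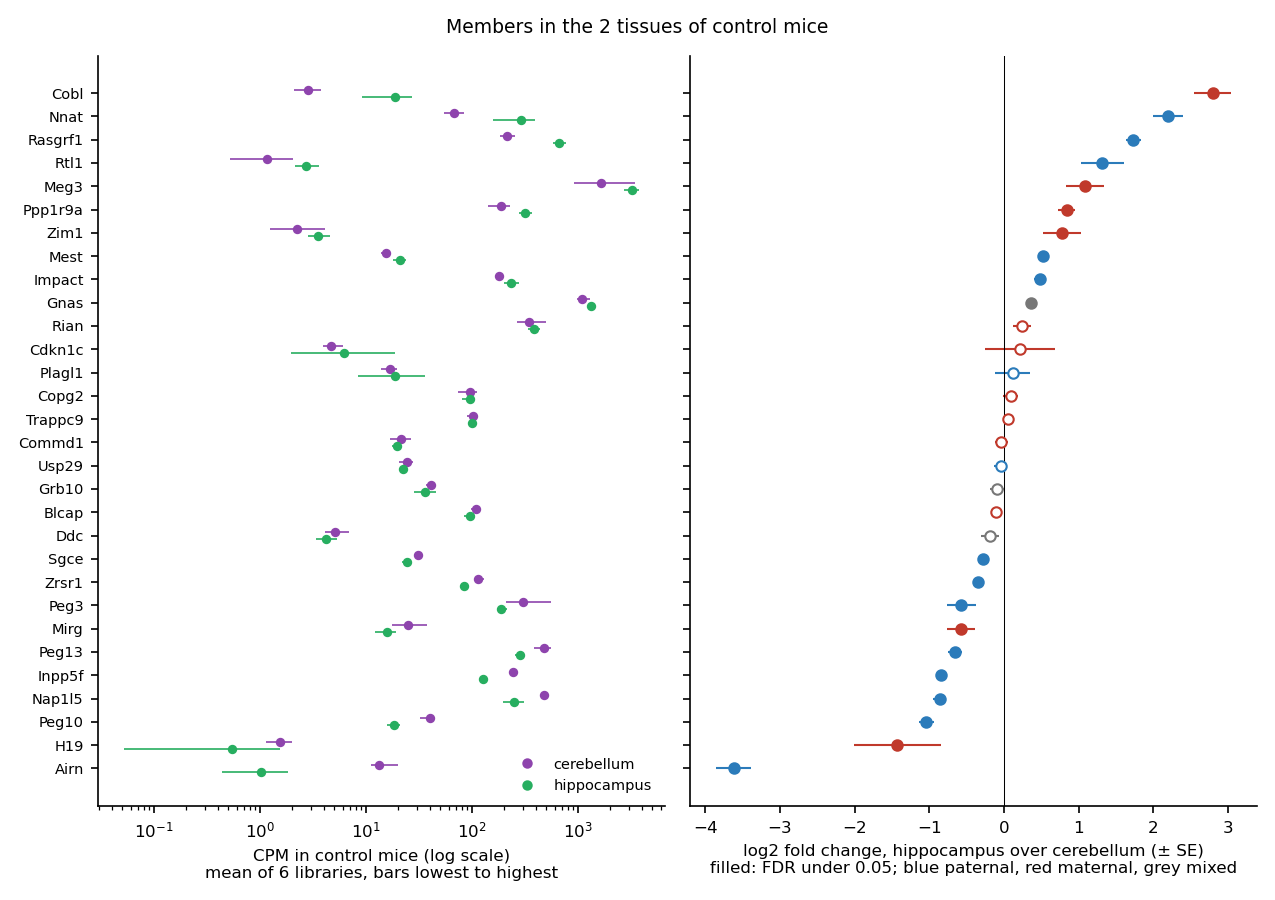
Members tested in control mice, ordered by their tissue difference. The left panel gives CPM on a log scale (mean of 6 libraries, bars from the lowest to the highest) and the right panel the log2 fold change of hippocampus over cerebellum with its SE, filled where FDR was under 0.05. Cobl (2.80) and Airn (-3.62) stand at the ends.

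Members of 1 cluster could differ in opposite ways between the tissues. Meg3, first of the noncoding RNAs of the Dlk1-Dio3 cluster, was 915 to 3440 CPM in the cerebellum and 2739 to 3779 CPM in the hippocampus (log2 fold change 1.09, SE 0.25, adjusted p = 0.00151), with control Sample_1129 alone reaching 3440 CPM in the cerebellum and overlapping the hippocampal range. Rian, the next one, did not pass (0.24, SE 0.12, adjusted p = 0.0939). Mirg, the last, was lower in the hippocampus (-0.58, SE 0.19, adjusted p = 0.0160). The protein-coding genes of that cluster, which are paternally expressed, were at low levels. Dlk1, a non-canonical Notch ligand, was 0 to 0.0755 CPM in cerebellar controls and 0.286 to 9.11 CPM in hippocampal ones. Dio3, the deiodinase that inactivates thyroid hormone, was 0.106 to 0.241 CPM in the cerebellum and 0.624 to 8.32 CPM in the hippocampus. Both were filtered out in this comparison. In mutant cerebella Dlk1 reached 9.89 CPM in Sample_1433, 3.40 CPM in Sample_936 and 2.34 CPM in Sample_933, the 3 libraries rich in choroid plexus markers.

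The main comparison asked whether the level of each member followed the number of Pogz alleles lost. In the cerebellum 30 of the 38 members passed the filter (over 1 CPM in at least 6 libraries), and 5 of them were called: Airn, Mirg and Rasgrf1 fell, and H19 and Nnat rose. Of all 14027 genes tested 13.7% were called, 7.11% higher and 6.55% lower, so 5 of 30 is near the share of all genes. By parental class 3 of 14 paternally expressed members were called (1 higher, 2 lower) and 2 of 13 maternally expressed ones (1 higher, 1 lower). Their median slopes were 0.001 and 0.03 on the log2 scale per allele lost, beside 0.0009 over all genes. Between cerebellar control libraries the class median of log2 CPM deviations had an SD of 0.033 (paternal) and 0.091 (maternal). None of the 3 members with a tissue-dependent allele was called. The 8 members not tested were Dlk1, Dio3, Rtl1, Phlda2, Ascl2, Calcr, Nespas and Slc22a3. In bulk tissue, fewer cells of a type and less RNA per cell cannot be told apart.

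Airn showed the smallest adjusted p of the members in the cerebellum. Its gene lies at chr17:12741311-12859884 on the plus strand. It was 10.997, 11.3 and 19.9 CPM (lowest, median and highest) in 6 controls, 8.82, 10.986 and 11.6 CPM in 6 cKO+/- mice, and 7.24, 7.84 and 10.2 CPM in 6 cKO-/- mice. All cKO-/- libraries were below all controls, which in either direction held for 4.58% of all genes and for no other member. The slope was -0.34 per allele lost (SE 0.07, edgeR quasi-likelihood test, adjusted p = 0.00285), and the call held when any 1 library was left out, including that of control Sample_1129, which had the highest value. With a covariate for animals numbered outside the controls' run it was -0.30 (adjusted p = 0.0539). Within that run alone it was -0.27 (adjusted p = 0.210). In the hippocampus Airn was at most 1.84 CPM in any library and was not tested.

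Rasgrf1 (chr9:89909775-90026979, plus strand) was called in both tissues. In the cerebellum it was 181, 207 and 253 CPM in controls, 163, 196 and 273 CPM in cKO+/- mice, and 129, 151 and 206 CPM in cKO-/- mice. Of the 6 cKO-/- libraries 5 lay below all controls, and that of Sample_1385 lay among them. The slope was -0.23 (SE 0.07, adjusted p = 0.0291). It was -0.33 (adjusted p = 0.0133) with the covariate for animal numbers and -0.31 (adjusted p = 0.000890) within the controls' run alone. The call was lost without control Sample_1129 (-0.21, adjusted p = 0.0673) and without cKO-/- Sample_1379 (-0.20, adjusted p = 0.0597).

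In the hippocampus Rasgrf1 was 574, 664 and 761 CPM in controls, 518, 589 and 624 CPM in cKO+/- mice, and 437, 496 and 575 CPM in 5 cKO-/- mice. Of these 5, 4 lay below all controls, and that of Sample_936 was level with the lowest control. The slope was -0.20 (SE 0.03, adjusted p = 0.00109) and -0.22 (adjusted p = 0.00278) with all 18 libraries. The call held in all 17 fits that left out 1 library. It was lost with the covariate for animal numbers (-0.18, adjusted p = 0.0859) and within the controls' run (-0.17, adjusted p = 0.394), which leaves 1 cKO-/- mouse in this tissue. Of 8 markers of hippocampal neurons tested there, 2 (C1ql2 and Wfs1) were called lower and none higher, beside 2.35% of all genes called lower. The median slope of the 8 was -0.13. In the cerebellum, where Rasgrf1 also fell, Wfs1 and Neurod6 of this list were called higher and none lower. The part of these neurons in the fall of Rasgrf1 was not tested. For Rasgrf1 the direct comparison of cKO-/- with control gave -0.45 (SE 0.13) in the cerebellum and -0.39 (SE 0.06) in the hippocampus. Its slopes differed between tissues by 0.02 (SE 0.08, adjusted p = 0.934).

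Mirg (maternally expressed) fell in the cerebellum. It was 17.555, 21.1 and 37.3 CPM in controls, 10.5, 16.996 and 25.7 CPM in cKO+/- mice, and 10.4, 14.4 and 18.7 CPM in cKO-/- mice. Of the 6 cKO-/- libraries 5 were below all controls. The slope was -0.39 (SE 0.11, adjusted p = 0.0286). The call was lost without control Sample_1129 (-0.31, adjusted p = 0.0891) or Sample_1190 (-0.33, adjusted p = 0.0837), the 2 highest controls, and without cKO-/- Sample_936 (adjusted p = 0.0526), Sample_1371 (0.0631) or Sample_1385 (0.0721). It was also lost with the covariate for animal numbers (-0.30, adjusted p = 0.290) and within the controls' run (-0.26, adjusted p = 0.361). In the hippocampus the slope was 0.005 (SE 0.11, adjusted p = 0.988). Its neighbours upstream on the same strand had cerebellar slopes of -0.24 (Meg3, SE 0.17, adjusted p = 0.358) and -0.15 (Rian, SE 0.07, adjusted p = 0.145), which did not pass.

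H19, a maternally expressed noncoding RNA of growth control (chr7:142575530-142578146, minus strand), rose in the cerebellum from a low level. It was 1.13, 1.44 and 1.98 CPM in controls, 1.30, 2.26 and 3.02 CPM in cKO+/- mice, and 1.80, 2.53 and 3.77 CPM in cKO-/- mice. Behind these values stood 30 to 111 counts per library. Of the 6 cKO-/- libraries 4 were above all controls. The slope was 0.41 (SE 0.13, adjusted p = 0.0380). It was 0.31 (adjusted p = 0.361) with the covariate for animal numbers and 0.21 (adjusted p = 0.517) within the controls' run. Leaving out any 1 of 7 animals (Sample_1129, Sample_1170, Sample_1190, Sample_1192, Sample_936, Sample_1379 and Sample_1385) ended the call, with adjusted p from 0.0606 to 0.0902. In the hippocampus H19 was not tested, being at most 0.436 CPM in 14 of the 18 libraries and at 4.49 CPM in cKO-/- Sample_1219, 2.70 CPM in cKO-/- Sample_1385, 1.53 CPM in control Sample_1190 and 1.03 CPM in control Sample_1129.

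Nnat (chr2:157560078-157562525, plus strand, inside an intron of the maternally expressed Blcap on the other strand) rose in the cerebellum. It was 53.7, 64.3 and 84.3 CPM in controls, 55.1, 72.3 and 151 CPM in cKO+/- mice, and 57.1, 129 and 183 CPM in cKO-/- mice. The cKO-/- libraries fell into separate levels, at 57.1 and 57.2 CPM in Sample_1160 and Sample_1219, and at 116, 141, 166 and 183 CPM in Sample_936, Sample_1371, Sample_1385 and Sample_1379. The first 2 are the cKO-/- animals numbered within the run of the controls. The slope was 0.43 (SE 0.13, adjusted p = 0.0402). Within the controls' run it was -0.10 (adjusted p = 0.422), in the opposite direction, and with the covariate for animal numbers it was 0.04 (adjusted p = 0.910). Leaving out any 1 of 9 animals (Sample_1129, Sample_1155, Sample_1170, Sample_1172, Sample_1190, Sample_936, Sample_1371, Sample_1379 and Sample_1385) ended the call, with adjusted p from 0.0563 to 0.113. Blcap itself had a cerebellar slope of 0.03 (SE 0.03, adjusted p = 0.492).

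The rises of H19 and Nnat ran beside those of markers of the meninges, the membranes around the brain. The 10 markers (Dcn, Lum, Slc6a13, Aldh1a2, Col1a1, Col1a2, Slc22a6, Foxc1, Ogn and Slc6a20a) summed to 150 to 195 CPM in cerebellar controls, 164 to 251 CPM in cKO+/- mice and 172 to 341 CPM in cKO-/- mice. Of them 6 (Dcn, Col1a1, Col1a2, Slc6a13, Aldh1a2 and Slc6a20a) were called higher, none was called lower, and none was at 0 in any group. The 10 choroid plexus markers, of which Folr1 was at 0 in controls, summed to 21.6 to 30.4 CPM in controls, to up to 3247 CPM in cKO+/- and up to 3122 CPM in cKO-/- mice. Without the 3 cerebellar libraries rich in them, Airn, Mirg and Rasgrf1 were still called, and H19 (0.36, adjusted p = 0.0922) and Nnat (0.43, adjusted p = 0.0588) were not. With scores of choroid plexus and meningeal markers and of monoamine neuron and brainstem markers as covariates, Airn (-0.33, adjusted p = 0.0138) and Rasgrf1 (-0.34, adjusted p = 0.00207) were called, and H19 (0.27, adjusted p = 0.263), Nnat (0.19, adjusted p = 0.441) and Mirg (-0.40, adjusted p = 0.0624) were not. The part of meningeal RNA in the results on H19 and Nnat was not tested beyond these fits. Beside the falls of Airn, Mirg and Rasgrf1, 8 markers of cerebellar neurons were tested. Of these, Barhl1, a homeobox gene of granule cells, was called lower (-0.29, SE 0.06, adjusted p = 0.00315) and none higher. Of all genes 13.7% were called, 6.55% lower. All cKO-/- libraries were below all controls for Barhl1, which in either direction held for 4.58% of all genes. Pcp2 (0.007), Calb1 (0.10) and Car8 (0.06) had positive slopes and the other markers negative ones. The median slope of the 8 was -0.08, and 2 passed at an unadjusted p under 0.05, beside 4233 of all 14027 genes. The part of these neurons in the 3 falls was not tested.

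**Figure D2:**
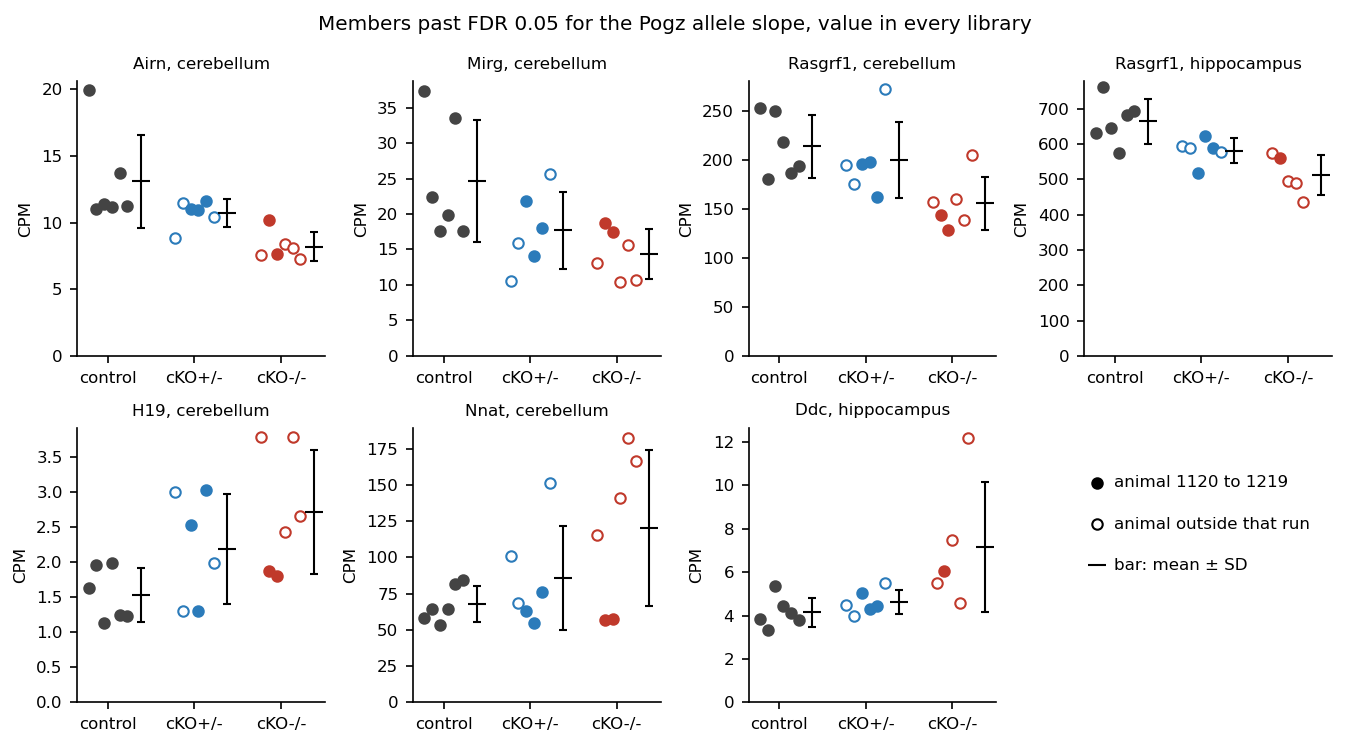
CPM of every library for the members called in either tissue, by genotype. Filled points are animals numbered Sample_1120 to Sample_1219, open points those outside that run, and bars give mean ± SD of 6 libraries (5 for hippocampal cKO-/-). All 6 cKO-/- values of Airn lie under the lowest control at 10.997 CPM, and the high Nnat values of 116 to 183 CPM in cKO-/- mice are all open points.

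In the hippocampus 30 of the 38 members were tested and 2 were called, Rasgrf1 (lower) and Ddc (higher). Of all 14339 genes 4.44% were called, 2.09% higher and 2.35% lower. With all 18 libraries the same 2 members were called, beside 1.72% of all genes. By class 1 of 16 paternally expressed members, 0 of 11 maternally expressed ones and 1 of 3 with a tissue-dependent allele were called. Of the 11 maternally expressed members 1 (Commd1) passed at an unadjusted p under 0.05, beside 2883 of all 14339 genes. Median slopes were 0.06 for the paternal and 0.03 for the maternal class, beside 0.002 over all genes, and the maternal one was -0.02 without the sex term. Between hippocampal control libraries the class median of log2 CPM deviations had an SD of 0.12 (paternal) and 0.11 (maternal). These SDs are spreads between single libraries. They are not errors of the median slopes, which were not computed. The 8 members not tested were H19, Phlda2, Ascl2, Asb4, Calcr, Nespas, Airn and Slc22a3. Usp29, a ubiquitin peptidase gene next to Peg3, had a slope of 0.15 (SE 0.04, adjusted p = 0.0571) and Commd1, a copper homeostasis gene, one of 0.09 (SE 0.03, adjusted p = 0.0886), both just outside the threshold. Groups of cKO-/- and control libraries did not overlap for 3.65% of all genes and for no member.

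Ddc (chr11:11814101-11898144, minus strand) encodes the decarboxylase that makes dopamine and serotonin and neighbours Grb10. In the hippocampus it was 3.36, 3.97 and 5.34 CPM in controls, 3.99, 4.47 and 5.50 CPM in cKO+/- mice, and 4.60, 6.05 and 12.2 CPM in 5 cKO-/- mice. Of these 5, 4 were above all controls, with Sample_1385 at 12.2 CPM and the next at 7.47 CPM. The slope was 0.40 (SE 0.10, adjusted p = 0.0247). The call was lost without Sample_1385 (0.24, adjusted p = 0.0896), Sample_1371 (0.37, adjusted p = 0.0753) or control Sample_1155 (0.38, adjusted p = 0.0514). With the covariate for animal numbers it was 0.36 (adjusted p = 0.500), and without the 4 libraries rich in choroid plexus markers, of which Sample_1385 is one, 0.29 (adjusted p = 0.0931). Markers of monoamine neurons, which use this enzyme, summed to 10.4 to 14.6 CPM in controls and 9.88 to 13.3 CPM in cKO-/- mice, and of the 2 tested none was called. Meningeal markers summed to 50.4 to 137 CPM in hippocampal controls and 81.7 to 205 CPM in the 5 cKO-/- mice, with 1 of 10 (Lum) called higher, and their part in the result on Ddc was not tested beyond the fit with marker scores, where Ddc was called (0.34, adjusted p = 0.0348). In the cerebellum the slope of Ddc was 0.13 (SE 0.08, adjusted p = 0.273). Grb10, an adaptor of the insulin receptor, had slopes of -0.11 in the cerebellum (adjusted p = 0.205) and -0.001 in the hippocampus (adjusted p = 0.996).

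**Figure D3:**
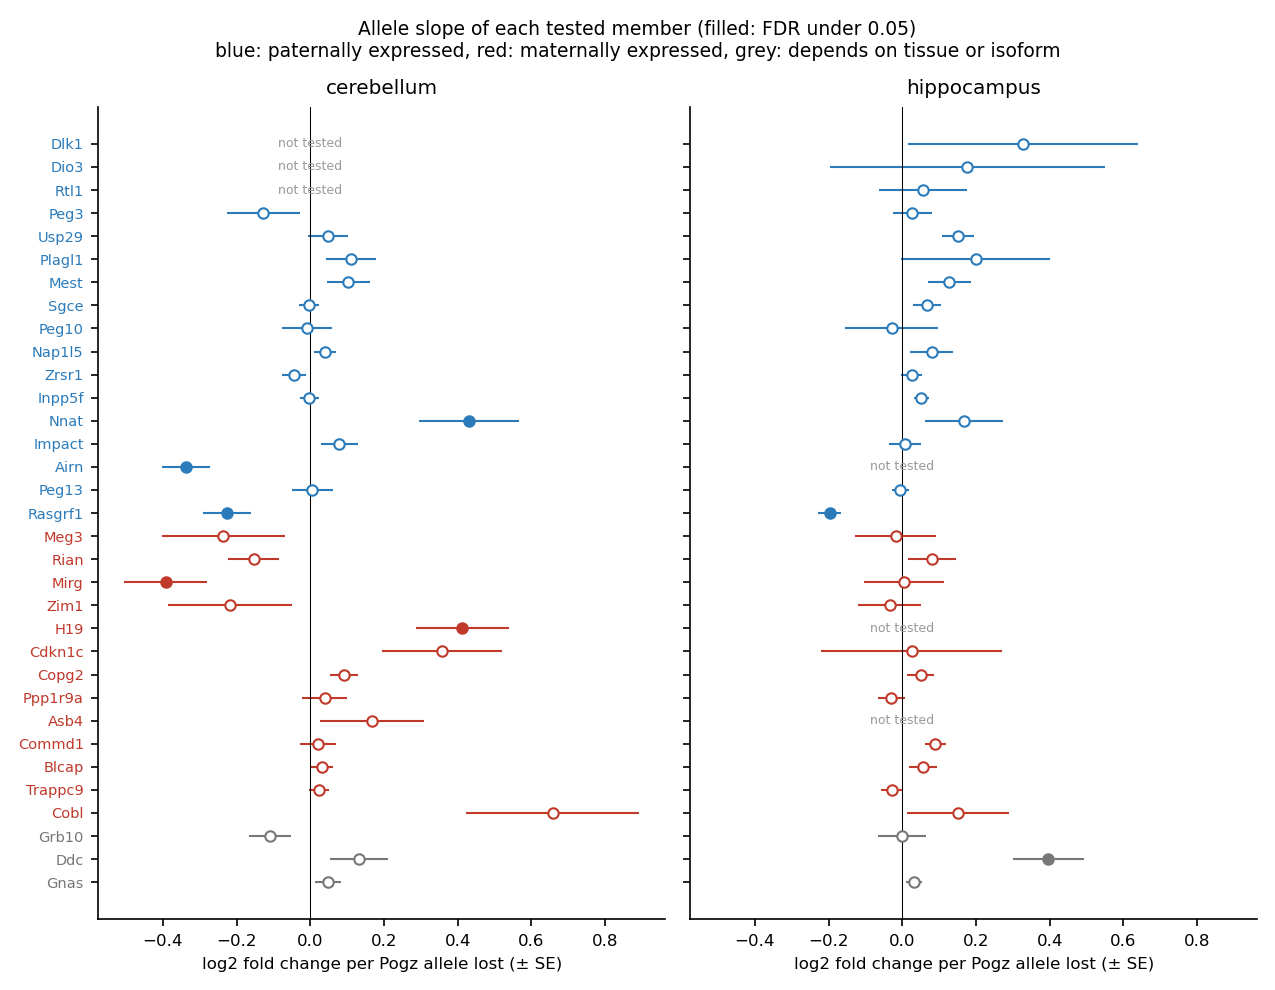
Log2 fold change per Pogz allele lost, with its SE, for each member tested in at least 1 tissue, from the fits on 18 cerebellar and 17 hippocampal libraries. Filled points passed FDR 0.05, and Rasgrf1 is filled in both panels at -0.23 and -0.20.

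Several members outside the threshold had wide errors. Cobl had the highest cerebellar slope of the members, 0.66 (SE 0.24, adjusted p = 0.0674), with 2.09 to 3.75 CPM in controls and 2.46 to 14.8 CPM in cKO-/- mice. It was called by DESeq2 and in the fits without Sample_1160, Sample_1219 or Sample_1433. It was high in the 3 cerebellar libraries rich in choroid plexus markers, at 15.2 CPM in Sample_1433, 11.4 CPM in Sample_936 and 7.85 CPM in Sample_933, and also in Sample_1385 (14.8 CPM), which is not one of them, and it was not called without these 3. Cdkn1c, a cyclin-dependent kinase inhibitor in the H19 region, had 0.36 (SE 0.16, adjusted p = 0.142). Its highest values stood in libraries rich in choroid plexus markers, at 14.2, 12.8 and 11.6 CPM in the cerebella of Sample_936, Sample_1433 and Sample_933, beside 3.14 to 9.04 CPM in the other 15. In the hippocampus it was 18.6 CPM in control Sample_1129 and 15.6 CPM in cKO-/- Sample_1385, and at most 8.26 CPM in the other 15 libraries of the fit. In the hippocampus the slopes of Dlk1 (0.33, SE 0.31), Dio3 (0.18, SE 0.37) and Plagl1 (0.20, SE 0.20), a zinc finger gene, were within about 1 SE of 0. At the narrow end, Inpp5f, an inositol phosphatase gene, had a cerebellar slope of -0.003 (SE 0.03) and Peg13 a hippocampal one of -0.005 (SE 0.02).

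The heterozygous mice alone gave no call. Against controls 0 of 30 members passed in the cerebellum (0.342% of all genes) and 0 of 30 in the hippocampus (0.0349% of all genes) in edgeR's test. At an unadjusted p under 0.05 there were 2 members in the cerebellum, beside 1631 of all 14027 genes, and 9 in the hippocampus, beside 1440 of all 14339 genes. In the hippocampus the largest log2 fold changes in cKO+/- mice were 1.29 for Dlk1 (SE 0.45, adjusted p = 0.319) and 1.26 for Dio3 (SE 0.53, adjusted p = 0.422). Dlk1 was 0.286, 4.15 and 9.11 CPM in controls, 4.92, 12.3 and 16.1 CPM in cKO+/- mice and 5.26, 7.18 and 10.3 CPM in cKO-/- mice, so that the middle genotype held the highest values. The cKO-/- mice against controls gave the same counts as the slope, 5 members in the cerebellum (12.7% of all genes) and 2 in the hippocampus (4.87%).

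The difference of the slopes between tissues was tested in 1 fit over 35 libraries for the 27 members that passed the filter in both. None was called in edgeR's test, beside 1.49% of all 13587 genes. Beside 1851 of all genes, 2 members passed at an unadjusted p under 0.05. These were Mirg (0.39, SE 0.16, adjusted p = 0.281) and Rian (0.23, SE 0.10, adjusted p = 0.298), for which the slope was higher in the hippocampus. With the animal as a block the count was also 0, beside 2.49% of all genes. A call in 1 tissue only, as for Nnat or Ddc, is therefore not shown to differ between tissues. Airn and H19 could not be compared, since they were filtered out in the hippocampus.

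Sex, the other term of the fits, gave 0 called members in either tissue in edgeR's test, beside 0.0499% of all genes in the cerebellum and 0.907% in the hippocampus. At an unadjusted p under 0.05 there were 2 of 30 members in the cerebellum, beside 475 of all 14027 genes. In the hippocampus there were 5 of 30, beside 2308 of all 14339 genes. In the hippocampus Peg13 was higher in males by 0.14 (SE 0.04, adjusted p = 0.0719) and Rasgrf1 by 0.15 (SE 0.05, adjusted p = 0.147). Both passed in DESeq2's test.

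Neighbouring members of a cluster were then compared across animals. The log2 CPM of each gene was freed of sex and of the Pogz dose, and 14 pairs in the cerebellum (18 libraries) and 15 in the hippocampus (17 libraries) were correlated with 100000 permutations. With Benjamini-Hochberg adjustment over the pairs of a tissue, 6 cerebellar and 9 hippocampal pairs passed 0.05, all with positive r. Genes of different loci were not paired, so the share of unrelated pairs that would pass is not known. These counts therefore do not show that neighbours go together more than other genes. The smallest p these permutations can give is 1e-05. Each r was also computed without the 2 libraries farthest from the median. These were chosen on 1 gene of the pair only, so extremes of the other gene could remain. For Meg3 and Rian the cerebellum gave r = 0.95 (permutation p = 1e-05, adjusted 0.00014), rho = 0.95 (permutation p = 1e-05, adjusted 0.00014) and r = 0.89 without the 2 farthest libraries. In the hippocampus the same pair gave r = 0.93 (permutation p = 1e-05, adjusted 7.5e-05), rho = 0.85 (permutation p = 5e-05, adjusted 0.00025) and r = 0.80 without the 2 farthest libraries. Among animals of the controls' run alone r was 0.96 in both tissues. Animals high in one of these RNAs were thus also high in the other.

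Rian and Mirg, the next neighbours, gave r = 0.81 (permutation p = 5e-05, adjusted 0.00035), rho = 0.75 (permutation p = 0.00058, adjusted 0.00406) and r = 0.74 without the 2 farthest libraries in the cerebellum. In the hippocampus they gave r = 0.85 (permutation p = 8e-05, adjusted 0.000171), rho = 0.78 (permutation p = 4e-04, adjusted 0.0012) and r = 0.57 without the 2 farthest libraries. The paternally expressed Rtl1, a retrotransposon-derived gene of the same cluster, was compared with Meg3 in the hippocampus only, and gave r = 0.87 (permutation p = 1e-05, adjusted 7.5e-05), rho = 0.84 (permutation p = 7e-05, adjusted 0.000262) and r = 0.75 without the 2 farthest libraries. The single exon of Rtl1 overlaps transcripts on the opposite strand, and whether the counting used strand is not stated in the sources used here, so reads of both strands cannot be told apart. Dlk1 and Meg3 in the hippocampus gave r = 0.57 (permutation p = 0.0285, adjusted 0.0475), rho = 0.70 (permutation p = 0.00236, adjusted 0.00442) and r = 0.57 without the 2 libraries farthest for Meg3.

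At the other loci Peg13, which lies in an intron of Trappc9, followed that gene, whose product acts in vesicle transport. In the cerebellum the pair gave r = 0.76 (permutation p = 0.00026, adjusted 0.00121), rho = 0.65 (permutation p = 0.00433, adjusted 0.0152) and r = 0.61 without the 2 farthest libraries. In the hippocampus it gave r = 0.82 (permutation p = 7e-05, adjusted 0.000171), rho = 0.74 (permutation p = 0.00091, adjusted 0.00195) and r = 0.74 without the 2 farthest libraries. Both genes are on the minus strand, so that intronic reads of Trappc9 cannot be told apart from Peg13. Peg3 and Zim1, a paternally and a maternally expressed zinc finger gene, gave r = 0.72 (permutation p = 0.00081, adjusted 0.00283), rho = 0.66 (permutation p = 0.00392, adjusted 0.0152) and r = 0.54 without the 2 farthest libraries in the cerebellum. In the hippocampus they gave r = 0.61 (permutation p = 0.009, adjusted 0.0169), rho = 0.65 (permutation p = 0.00543, adjusted 0.00905) and r = 0.60 without the 2 farthest libraries.

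Other pairs passed in 1 tissue. Nnat and Blcap gave r = 0.84 (permutation p = 5e-05, adjusted 0.00015), rho = 0.86 (permutation p = 5e-05, adjusted 0.00025) and r = 0.82 without the 2 farthest libraries in the hippocampus. In the cerebellum they gave r = 0.13 (permutation p = 0.615, adjusted 0.615), rho = 0.20 (permutation p = 0.432, adjusted 0.504) and r = -0.00806 without the 2 farthest libraries. Sgce and Peg10, which start next to each other and are transcribed apart, gave r = 0.57 (permutation p = 0.0124, adjusted 0.029), rho = 0.54 (permutation p = 0.0215, adjusted 0.0503) and r = 0.44 without the 2 farthest libraries in the cerebellum, where the rank correlation missed the threshold. In the hippocampus they gave r = 0.03 (permutation p = 0.909, adjusted 0.909), rho = 0.13 (permutation p = 0.619, adjusted 0.75) and r = -0.13 without the 2 farthest libraries. Differences between the tissues were not tested. Mest and Copg2, whose exons overlap on opposite strands, did not pass in either tissue, with r = 0.31 and 0.30. All pairs share their libraries, and genes of 1 library share its depth and cell makeup.

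**Figure D4:**
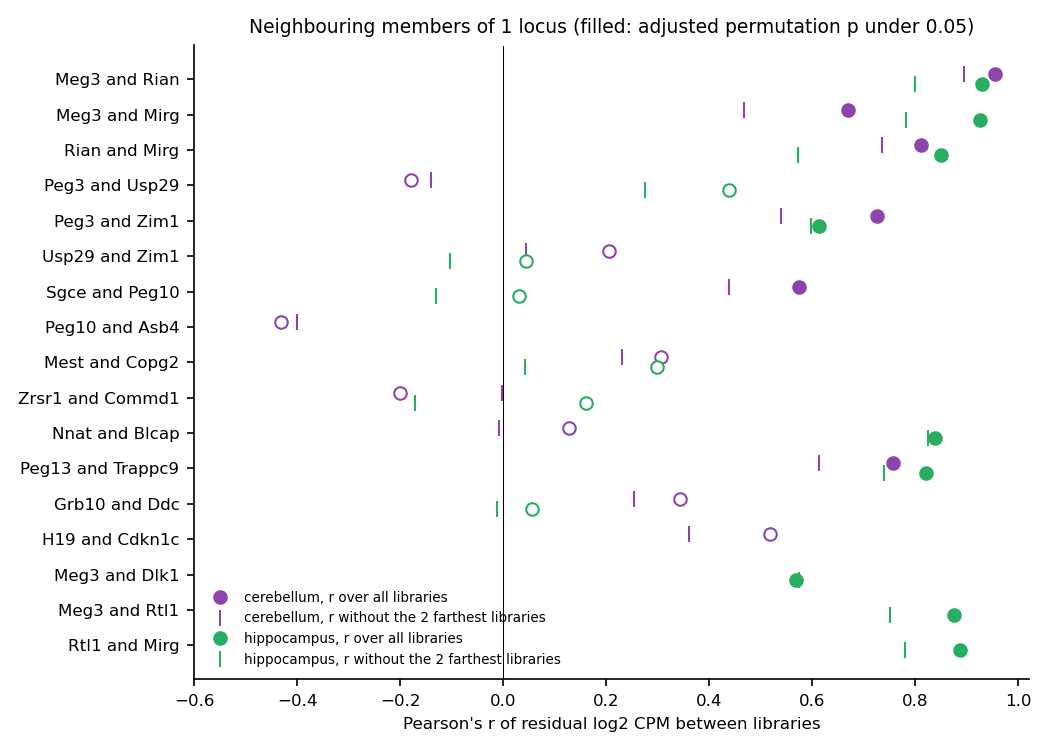
Pearson's r between neighbouring members, from log2 CPM freed of sex and Pogz dose, over 18 cerebellar and 17 hippocampal libraries. Filled points passed an adjusted permutation p of 0.05, and ticks give r without the 2 libraries farthest from the median in the gene named first. Meg3 and Rian stand highest in both tissues (0.95 and 0.93).

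Several members also varied widely between animals of 1 genotype, and others varied little. The residual SD of log2 CPM had a median of 0.23 over the 30 members tested in the cerebellum, beside 0.18 over all genes, and of 0.21 in the hippocampus, beside 0.14. Of the members 8 in the cerebellum and 11 in the hippocampus exceeded the 90th percentile of all genes. The widest were Cobl (0.82), Meg3 (0.64) and Cdkn1c (0.61) in the cerebellum, and Dio3 (1.30), Dlk1 (1.24) and Cdkn1c (0.90) in the hippocampus. The narrowest were Inpp5f (0.067), Sgce (0.072) and Trappc9 (0.081) in the cerebellum, and Inpp5f (0.060), Gnas (0.063) and Peg13 (0.063) in the hippocampus. Residual SD also depends on a gene's level, and this was not corrected for.

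Other imprinted genes and the proteins that keep imprints were described from separate lists. Of 37 further imprinted genes 36 were in the tables and 25 were tested in the cerebellum, where Qpct (0.46, SE 0.13, adjusted p = 0.0249), Sfmbt2 (0.33, SE 0.10, adjusted p = 0.0360), Pon3 (0.57, SE 0.18, adjusted p = 0.0405) and Dhcr7 (0.13, SE 0.04, adjusted p = 0.0351) rose and none fell. Of all genes 13.7% were called in that fit, and 4 of 25 is near this share over both directions. All 4 rose, and 7.11% of all genes were called higher, but this direction was not set beforehand. These 4 were not examined with the covariate for animal numbers, within the controls' run or with libraries left out. Meningeal markers rose in the same cerebella (172 to 341 CPM in cKO-/- mice against 150 to 195 CPM in controls). Their part in these rises was not tested. In the hippocampus 27 of the further imprinted genes were tested and 0 were called in edgeR's test, beside 4.44% of all genes. At an unadjusted p under 0.05 there were 5 of the 27, beside 2883 of all 14339 genes. The median slope of the further imprinted genes was 0.04 in the cerebellum and 0.03 in the hippocampus. Of 16 genes for imprint maintenance, among them Zfp57, Trim28 and Ctcf, 13 were tested in the cerebellum and 14 in the hippocampus, and 0 were called in edgeR's test (3 and 1 at an unadjusted p under 0.05), beside the same 13.7% and 4.44% of all genes. Their median slopes were -0.04 and -0.03 on the log2 scale. Zfp57 had slopes of -0.11 (SE 0.14, adjusted p = 0.621) and 0.02 (SE 0.11, adjusted p = 0.956), and Trim28 slopes of -0.06 (SE 0.03, adjusted p = 0.230) and -0.07 (SE 0.03, adjusted p = 0.205).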

How the data were processed

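RNA from the cerebellum and hippocampus of 18 mice was sequenced as paired-end poly(A) libraries. The authors deposited 1 table of raw read counts per gene for each tissue, and the submitters' processing notes name STAR 250a and mm9. The tables' coordinates fit GRCm38 instead, since all 37 members found in RefSeq overlap their GRCm38.p6 position. Strand use in counting is not given in the sources used here.

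Counts of 24421 genes were analysed with edgeR 4.0.16 in R 4.3.3 (TMM scaling, over 1 CPM in at least 6 libraries, quasi-likelihood F-test, Benjamini-Hochberg over all genes tested, FDR 0.05). The model held sex and the number of Pogz alleles lost, and a positive slope means a higher level on loss. Hippocampal fits did not use Sample_1160, which stood apart. The study's reporting summary says that 1 outlier RNA sample was left out and does not name it. Without Sample_1160 the slope fit called 636 of 14339 genes, the number the study gives for the hippocampus. With all 18 libraries it called 246. DESeq2 1.42.0, other scaling, filters, covariates and left-out libraries were alternatives. In simulated data the slope test recovered 74.7% of changes of 0.3 (log2) in the cerebellum (14045 genes) and 34% in the hippocampus (14398 genes). These shares do not rank the tissues. In the fits the median residual SD over all genes was lower in the hippocampus (0.142) than in the cerebellum (0.183). The simulated hippocampal noise was estimated from all 18 libraries, Sample_1160 included, whereas the reported fit left that library out. The 34% therefore does not give what the reported fit can detect. Of the calls in simulated data at FDR 0.05, 6.25% in the cerebellum and 8.46% in the hippocampus were false.

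Values in every library are given for members past the threshold for the allele effect in either tissue, and other members are given by ranges and counts. Members and gene lists were chosen with earlier results of these data known. Between the 2 tissues of an animal, deviations from the group means correlated with a median r of 0.264 over 17 animals (above 0.1 in 15), so the animal was tried as a block between tissues.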

Additional observations from a re-analysis of the deposited data

Results flagged for a closer look

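In 14 of the 180 groups of members' values tested (7.78%), 1 library stood farther from the rest than Dixon's 95% limit allows. Chance flags about 1 in 20 groups. In the cerebellum, 8 groups stood out. Control Sample_1129 was high for Peg3 (554.1 CPM) and Airn (19.93 CPM), and control Sample_1190 was high for Impact (196.2 CPM) and low for Trappc9 (89.93 CPM). The cKO+/- Sample_1433 stood apart for Zim1 (4.379 CPM), Usp29 (33.59 CPM), Ppp1r9a (172.5 CPM) and Peg13 (406.1 CPM), and its library is also one of the 3 rich in choroid plexus markers. In the hippocampus, 6 groups stood out. The cKO+/- Sample_1120 was high for Mirg (30.24 CPM), Rtl1 (5.181 CPM) and Blcap (120.2 CPM). Control Sample_1155 was low for Dlk1 (0.2861 CPM), and cKO-/- Sample_1385 stood apart for Blcap (88.54 CPM) and Gnas (1277 CPM).

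The hippocampal library of Sample_1160, which the fits left out, lay more than 1.5 times beyond the range of the other 17 libraries for 9 members. It was low for Rian (171.7 CPM), Peg3 (3.875 CPM, others 151.4 to 255.4 CPM), Zim1 (0.2053 CPM), Mest (8.751 CPM), Peg10 (5.184 CPM) and Peg13 (133 CPM). It was high for Commd1 (75.81 CPM), Nnat (824.6 CPM) and Blcap (182.2 CPM). Across all genes its deviation fell with exon length (rho = -0.659), with a median of -0.886 on the log2 scale for 1804 genes over 6000 bases and 1.04 for 3884 genes under 2000 bases. The cerebellar library of the same animal had a rho of 0.275.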

How the results depend on the processing

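The 5 cerebellar calls stayed within 1.5 times under 5 of 10 alternatives. They became 0 for cKO+/- against control, 1 (Rasgrf1) with a covariate for animal numbers and 1 (Rasgrf1) within the controls' run, 2 (Airn and Rasgrf1) with marker scores and 3 without libraries rich in choroid plexus markers, an alternative chosen after seeing the data. Leaving out 1 library gave 1 (without Sample_1129) to 6 calls (without Sample_1160). The paternal cerebellar median was 0.0379 in cKO+/- mice and -0.0140 to 0.0304 with 1 library left out. The hippocampal maternal median (0.0260) was -0.0210 without the sex term and -0.0220 (without Sample_1192) to 0.0725 (without Sample_1385) with 1 library left out. The 2 hippocampal calls became 0 in cKO+/- mice, 0 with the covariate and 0 within the controls' run, and were 1 to 3 with 1 library left out (1 without Sample_1155 or Sample_1371). DESeq2 called 2 members for sex in the hippocampus. The sign turned for cerebellar Nnat within the controls' run (-0.0959) and for hippocampal Mirg, which was near 0, without the sex term (-0.0210) and in cKO-/- mice against controls (-0.0184), its range with 1 library left out being -0.0526 to 0.106. The causes were not tested.

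No paired analysis was possible because genotypes within a tissue share no animals. Between tissues, the animal as a block gave 0 members for the slope difference and 20 for the control comparison, as without pairing. In the control comparison 26 members were called with no filter on low counts. Depth limits the members under 1 CPM. In simulated data changes of 0.3 (log2) were recovered for 34% of genes in the hippocampal slope test. The simulated noise was estimated with Sample_1160 included, so this share does not give what the reported hippocampal fit can detect.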
